A study of Mus musculus with 2 samples.

Results

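Twist1, its E-protein partners and the Id factors that sequester those partners were measured in RNA of newborn mouse cranial sutures, the fibrous joints between the skull bones. The genes were chosen by name as the Twist factors (Twist1, Twist2), the E-proteins (Tcf12, Tcf3, Tcf4) and the Id factors (Id1, Id2, Id3, Id4). Of these 9 genes, 7 had a row among the 23930 amplicon targets of the table, and Twist2 and Id4 were not analysed here. The study's samples form 1 group of 2 bulk libraries, called library 1 and library 2 after the number in their titles, from wildtype pups at postnatal day 3. Tissue of the lambdoid, sagittal and coronal sutures went into each. The sources used here do not give strain, sex, treatment or the number of pups per library. Nothing says that the libraries came from separate animals, so their spread cannot be read as variation between animals. The cell type in the labels is suture stem cells, but the protocol starts from tissue and names no sort.

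Basic helix-loop-helix (bHLH) factors bind DNA as dimers at short sequences called E-boxes. E-proteins are the broadly expressed partners, and tissue-restricted factors such as Twist1 or the myogenic factors pair with them. Id proteins have the dimerization helices but lack the basic DNA-binding region, so a dimer of an Id protein and an E-protein does not bind an E-box. Twist1 holds skull mesenchyme in an undifferentiated state, and loss of a copy of human TWIST1 or TCF12 is a known cause of coronal suture fusion. Id genes are classical targets of bone morphogenetic protein (BMP) signalling. Tcf3 and Tcf4 here are the E-protein genes and not the Wnt effectors that once shared these names.

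All 7 measured genes were expressed, with Id3 highest and Id2 lowest by the mean of the libraries. Levels are in CPM, the reads of a gene's amplicon scaled to the library total. A panel reads 1 short amplicon of every gene, so CPM needs no division by length, but amplicons differ in efficiency and the order of genes is a description. The median of the 7 means was 98.4 CPM, against 3.29 CPM for all targets and 21.4 CPM for the 13157 targets (55.0%) that reached 1 CPM in both libraries. All 7 also exceeded 10 CPM in both, as did 34.6% of all targets. Together they took 921 CPM of library 1 and 914 CPM of library 2. The smallest number of reads behind a value was 331 in library 1 and 813 in library 2.

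**Figure D1:**
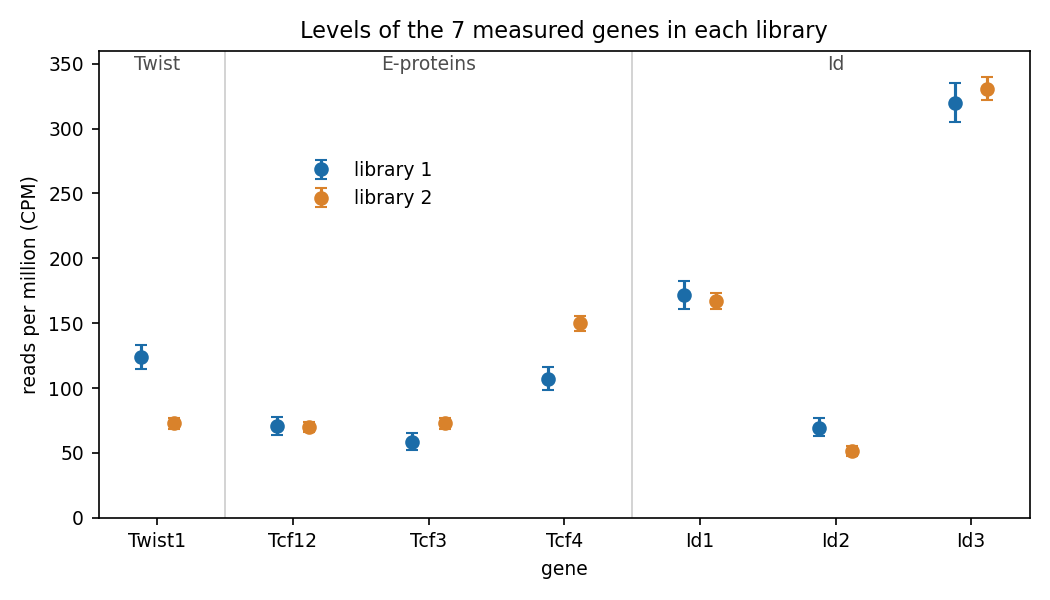
CPM of the 7 measured genes in library 1 (blue) and library 2 (orange). Bars are exact 95% Poisson intervals of the reads and cover counting error only. Id3 lies above 300 CPM in both libraries, and Twist1 shows the widest gap relative to its level, 124 against 72.8 CPM.

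Twist1 was read at 124 CPM in library 1 and 72.8 CPM in library 2, a mean of 98.4 CPM ± 36.1 (SD, n = 2). Library 1 was thus the higher one, and the exact 95% Poisson intervals of 115 to 133 CPM (library 1) and 68.7 to 77.2 CPM (library 2) did not overlap. The ratio of library 1 to library 2 was 1.70 (exact 95% interval 1.55 to 1.87), with adjusted p = 5.75e-26 in the exact binomial test. Of the 7 genes, only Twist1 passed 1.5-fold, a size reached by 40.2% of the 9192 targets whose mean was at least 10 CPM, called well-measured targets here (2-fold was reached by 16.5%). A larger difference than that of Twist1 was found for 27.6% of them. On mm10, Twist1 spans bases 33957671 to 33959829 of chromosome 12 on the plus strand, has 2 exons and overlaps no other annotated gene.

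Among the E-proteins, Tcf4 was highest at 107 CPM in library 1 and 150 CPM in library 2 (128 CPM ± 30.3, SD, n = 2). It was 1.40-fold higher in library 2 (interval 1.28 to 1.53, adjusted p = 2.90e-13, exact binomial test). The Tcf4 gene overlaps a gene annotated as ribosomal RNA on the same strand. Tcf12, the E-protein that human genetics links to the coronal suture together with Twist1, was read at 70.5 and 69.9 CPM (70.2 CPM ± 0.418, SD, n = 2). Its libraries were nearly level, at a library 1 to library 2 ratio of 1.01 (0.897 to 1.13), and the exact binomial test gave adjusted p = 1. Tcf12 lies on chromosome 9 from 71842688 to 72111871 on the minus strand. In the annotation 11 other features overlap it, among them pseudogenes and a microRNA gene, and the position of its amplicon is not stated. Tcf3, required for early B cell development among other roles, was read at 58.4 and 72.7 CPM (65.6 CPM ± 10.1, SD, n = 2). It was 1.24-fold higher in library 2 (interval 1.10 to 1.41, adjusted p = 0.00151, exact binomial test). Tcf3 lies on chromosome 10 from 80409514 to 80433647 on the minus strand and overlaps no other gene.

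Of the Id factors, Id3 stood at 320 CPM in library 1 and 331 CPM in library 2 (325 CPM ± 7.82, SD, n = 2). That placed it at rank 324 of all targets by mean CPM. Id1 followed at 172 and 167 CPM (169 CPM ± 3.32, SD, n = 2). Neither was called different: the ratio of library 1 to library 2 was 0.967 (interval 0.916 to 1.02) for Id3 and 1.03 (interval 0.954 to 1.11) for Id1. Their adjusted p was 0.416 and 0.734 in the exact binomial test. Id2 was the lowest of the 7 genes at 69.4 and 51.4 CPM (60.4 CPM ± 12.7, SD, n = 2), and library 1 was the higher one. Its ratio was 1.35 (interval 1.19 to 1.52, adjusted p = 9.21e-06, exact binomial test). Id1 lies on chromosome 2 from 152736251 to 152737410 and Id3 on chromosome 4 from 136143497 to 136145755, both on the plus strand. Id2 lies on chromosome 12 from 25093799 to 25097140 on the minus strand. None of the 3 overlaps another annotated gene.

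By mean CPM the order was Id3, Id1, Tcf4, Twist1, Tcf12, Tcf3 and Id2. Of the 6 neighbouring pairs, 3 had library ranges that did not overlap: Id3 over Id1, Id1 over Tcf4, and Twist1 over Tcf12. Twist1 and Tcf12 were close in library 2, at 72.8 and 69.9 CPM. Their Poisson intervals there overlapped (68.7 to 77.2 and 65.8 to 74.1 CPM), so counting error covers that gap. The ranges of Tcf4 and Twist1 overlapped, as did those of Tcf12 and Tcf3 and of Tcf3 and Id2. Twist1 was above Tcf4 in library 1 and below it in library 2. Tcf3 was the lowest gene in library 1, and Id2 was the lowest in library 2.

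Over the 7 genes, the test called 2 higher in library 1 (Twist1, Id2), 2 higher in library 2 (Tcf4, Tcf3) and 3 not different (Id1, Id3, Tcf12). Over all 23930 targets it called 37.0%, (17.1% higher in library 1 and 20.0% higher in library 2), and over well-measured targets 69.5% (32.5% and 37.0%). Among the 2586 targets with a mean CPM between those of Id2 and Id3, it called 81.0%. A count of 4 in 7 lies below these shares of expressed targets, and with 7 genes nothing is read from that. The test counts reads in 2 libraries of 1 group, so it compares those libraries and not conditions. With an assumed coefficient of variation of 0.2 between samples, edgeR's exact test called 0 of the 7 genes and 8.06% of well-measured targets. The median difference of the 7 genes was 0.01 on the log2 scale (library 1 minus library 2), against -0.05 for well-measured targets. The median size of the difference, whatever its sign, was 0.32 for the 7 genes and 0.47 for well-measured targets. In the range from Id2 to Id3 that median was 0.43. Id1, Id3 and Tcf12, 3 of the 7, differed by 0.05 or less on this scale, as did 6.19% of targets in that range. These 3 were singled out after their values were seen.

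**Figure D2:**
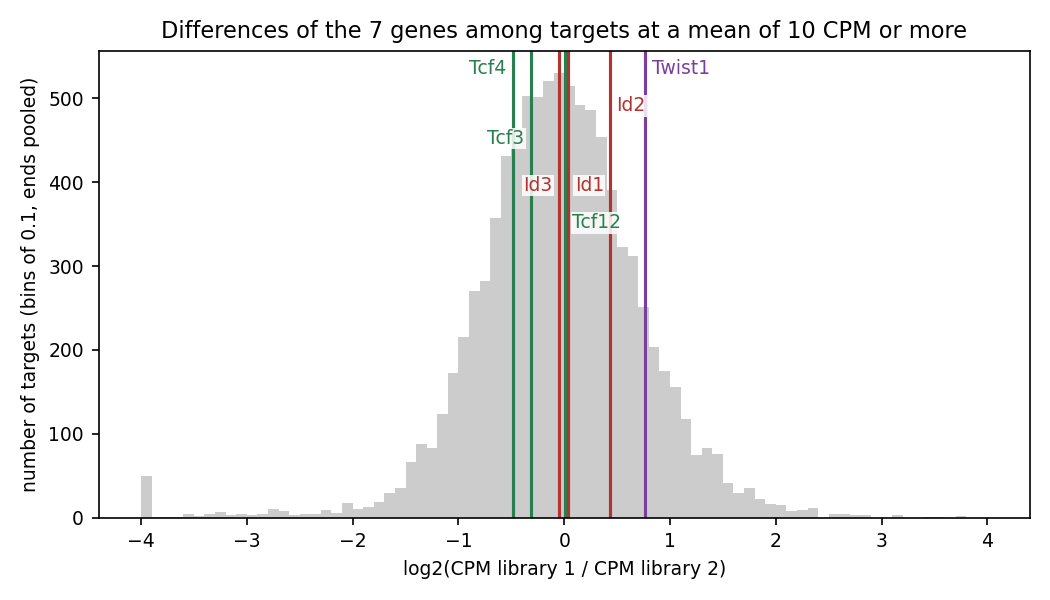
Histogram of log2(CPM library 1 / CPM library 2) for well-measured targets, those with a mean of at least 10 CPM (grey), with values beyond 4 pooled at the ends, and lines for Twist1 (purple), E-protein genes (green) and Id genes (red). All 7 lines fall in the bulk of the distribution, with Twist1 at 0.77 and Tcf4 at -0.49 the outermost.

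The balance of reads between Twist1, the E-proteins and the Id genes was not the same in the libraries. An amplicon efficiency that is the same in both libraries cancels when a ratio of single genes is compared between the libraries. Of the ratios here, only Twist1 to Tcf12 is of that kind. With summed reads, efficiencies cancel only if the mix of genes in the sum is the same in both libraries. The shares given below differed for some genes, so in those ratios efficiencies need not cancel. No ratio here is a ratio of molecules. Twist1 reads stood to the summed reads of the 3 E-proteins at 0.525 in library 1 (exact 95% binomial interval 0.479 to 0.576) and at 0.249 in library 2 (0.233 to 0.266). Twist1 to Tcf12 was 1.76 (1.55 to 1.99) in library 1 and 1.04 (0.959 to 1.13) in library 2. Summed reads of Id1, Id2 and Id3 stood to E-protein reads at 2.38 (2.23 to 2.54) in library 1 and 1.88 (1.81 to 1.95) in library 2. Id to Twist1 reads moved the other way, from 4.52 (4.17 to 4.92) in library 1 to 7.54 (7.09 to 8.03) in library 2. Thus library 1 held more Twist1 for each E-protein read, and library 2 more Id for each Twist1 read. These 4 ratios share genes whose levels are given above, so they are not separate results. None of the 4 pairs of intervals overlapped. They cover counting error only, n is 2, and at these depths the test on reads called 69.5% of well-measured targets, so intervals that do not overlap are the usual outcome here.

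Within the E-protein family, Tcf4 gave 45.4% of E-protein reads in library 1 (interval 42.7% to 48.1%) and 51.2% in library 2 (49.8% to 52.7%). The Tcf12 share was 29.9% (27.4% to 32.4%) in library 1 and 23.9% (22.7% to 25.2%) in library 2. The Tcf3 share was 24.8% and 24.9%, with overlapping intervals. Tcf4 was thus the leading E-protein amplicon in both. Among the Id genes, Id3 gave 57.0% (55.3% to 58.8%) and 60.2% (59.2% to 61.3%), and Id1 gave 30.6% and 30.4%. Id2 gave 12.4% in library 1 and 9.37% in library 2, with intervals that did not overlap.

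**Figure D3:**
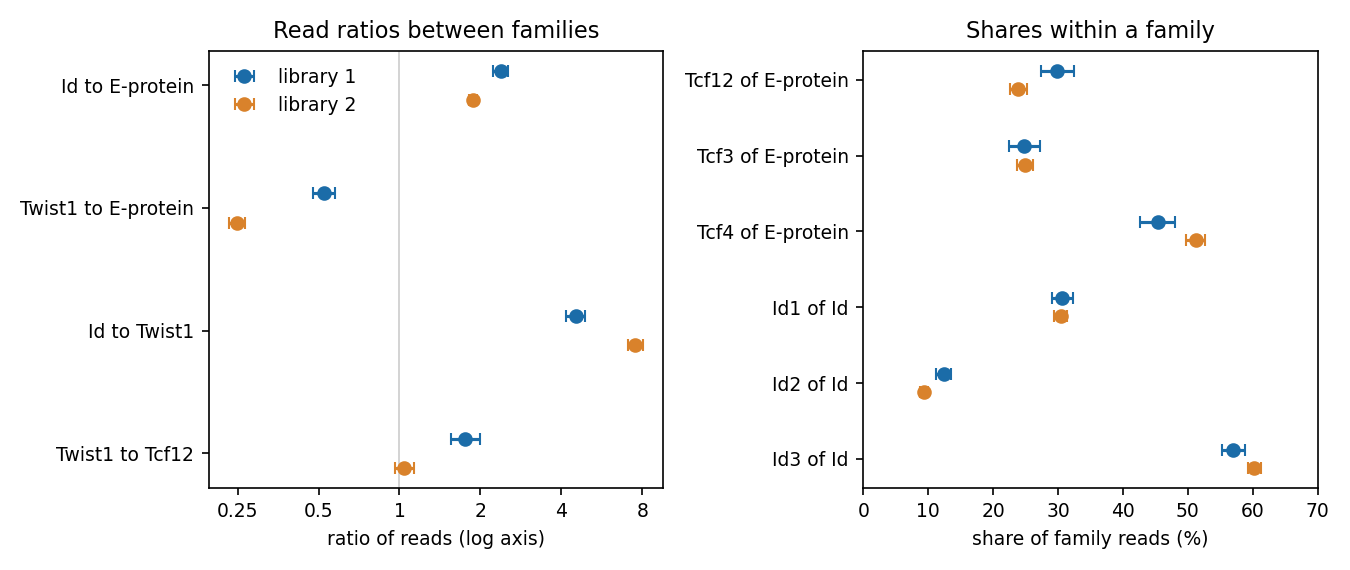
Left, ratios of reads between families on a log axis; right, each gene's share of its family's reads in percent. Points are library 1 (blue) and library 2 (orange) with exact 95% binomial intervals; the Twist1 to E-protein ratio is 0.525 in library 1 and 0.249 in library 2, while the shares of Tcf3 and Id1 overlap.

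The promoters of the genes on either side are shown for the E-box, the site that dimers of Twist1 and E-proteins bind, unlike those with Id proteins. The table of RefSeq promoters (GRCm38.p6, 250 bases before to 50 after a gene's start) held 5 of the 7 genes. A sequence is printed for Twist1 and Id2, both higher in library 1, Tcf3, higher in library 2, and Id3, the most abundant. The searches, on both strands, were for the E-box CANNTG, the GC-rich Smad motif GGCGCC and the TATA motif TATAAA. Capitals mark every match.
Twist1: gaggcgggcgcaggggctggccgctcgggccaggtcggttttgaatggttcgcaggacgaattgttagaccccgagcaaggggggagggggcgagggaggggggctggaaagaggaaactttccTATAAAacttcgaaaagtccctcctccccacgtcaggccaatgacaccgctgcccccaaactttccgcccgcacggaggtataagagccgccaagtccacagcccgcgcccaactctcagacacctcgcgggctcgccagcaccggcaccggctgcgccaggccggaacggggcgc
Id2: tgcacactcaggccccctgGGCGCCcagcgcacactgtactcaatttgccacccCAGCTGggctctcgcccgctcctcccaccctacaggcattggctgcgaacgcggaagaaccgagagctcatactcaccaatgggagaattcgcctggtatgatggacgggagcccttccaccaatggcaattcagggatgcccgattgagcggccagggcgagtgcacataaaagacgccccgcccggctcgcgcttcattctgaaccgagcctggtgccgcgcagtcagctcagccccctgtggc
Tcf3: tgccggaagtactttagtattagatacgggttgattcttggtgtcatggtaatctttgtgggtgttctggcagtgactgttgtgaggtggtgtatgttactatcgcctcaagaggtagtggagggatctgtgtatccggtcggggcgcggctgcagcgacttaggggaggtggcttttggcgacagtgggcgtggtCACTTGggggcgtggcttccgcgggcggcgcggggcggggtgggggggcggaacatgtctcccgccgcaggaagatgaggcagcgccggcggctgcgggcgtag
Id3: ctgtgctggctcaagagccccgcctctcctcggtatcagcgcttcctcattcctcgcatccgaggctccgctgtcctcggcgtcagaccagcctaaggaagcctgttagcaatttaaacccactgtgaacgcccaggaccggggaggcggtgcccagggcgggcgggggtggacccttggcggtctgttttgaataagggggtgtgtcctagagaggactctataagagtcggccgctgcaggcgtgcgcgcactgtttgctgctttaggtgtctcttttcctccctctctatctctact
These are chr12:33957421-33957720 on the plus strand for Twist1, chr12:25096043-25096342 on the minus strand for Id2, chr10:80433586-80433885 on the minus strand for Tcf3 and chr4:136143572-136143871 on the plus strand for Id3. The Id2 window holds 1 E-box, CAGCTG, whose first base is at position -196 from the start site, and 1 GGCGCC at -231. The Tcf3 window holds 1 E-box, CACTTG, at -54. The Twist1 window has 1 TATAAA, at -126, and no CANNTG or GGCGCC, and the Id3 window has no match of the 3 motifs. All 3 Tcf12 promoters in the table hold an E-box. For comparison, CANNTG occurs in 72.3% of all 32851 promoters, GGCGCC in 11.9% and TATAAA in 13.6%. These matches are descriptions of the letters in the windows and not of binding.

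The 7 genes were set beside 49 other bHLH genes measured in the same libraries. These came from chosen lists (mesodermal and mesenchymal, myogenic, neural, blood and endothelial, Hes and Hey), which do not cover the whole bHLH family. Of those 49, 20 were at 1 CPM or above in both libraries and 11 at 10 CPM or above. Only 3 had a higher mean than Id2, the lowest of the 7: Bhlhe40, a repressor of the circadian and hypoxia responses, at 171 CPM, Heyl, a Notch target, at 70.5 CPM, and Myog at 69.1 CPM. Of the 14 mesodermal and mesenchymal bHLH genes, 2 reached 1 CPM in both libraries. Scx, the tendon factor, led with 72.0 CPM in library 1 and 38.6 CPM in library 2. It was higher in library 1 (adjusted p = 4.32e-20, exact binomial test), as Twist1 was. Bhlha15, a factor of secretory cells, was read at 1.06 and 5.57 CPM and Bhlha9, a limb factor, at 1.06 and 0.949 CPM. Hand1 and Hand2, known relatives of Twist1 in limb and face mesenchyme, had 0 reads in both libraries, which at a limit of 3 reads allows a level of 0.530 CPM (library 1) or 0.190 CPM (library 2). They were named after their values were seen.

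Tissue-restricted bHLH factors of other lineages and the Hes and Hey list were read as well. All 4 myogenic factors, which drive muscle differentiation, were detected and higher in library 1. The test called 26.8% of all targets with a mean of at least 1 CPM in that direction. Myog was read at 101 and 37.0 CPM, Myf6 at 52.8 and 11.0 CPM and Myod1 at 35.3 and 15.2 CPM. Of 18 neural bHLH genes, 6 reached 1 CPM in both libraries, and Atoh8 (20.0 and 25.1 CPM), Nhlh1 (2.47 and 37.1 CPM) and Olig1 (8.12 and 8.10 CPM) were highest. Nhlh1, a factor of young neurons, was much higher in library 2 (adjusted p = 6.03e-57, exact binomial test). In the blood and endothelial list, Lyl1 was read at 17.0 and 18.5 CPM, Tal1, an organizer of blood development, at 11.7 and 7.97 CPM, and Tal2 at 0 and 1.01 CPM. In the Hes and Hey list, in which Bhlhe40 was also placed, 6 of the 10 measured genes reached 1 CPM in both. The test called 4 higher in library 1 and 1 higher in library 2, beside 17.1% and 20.0% of all targets. For targets with a mean of at least 1 CPM these shares were 26.8% and 32.9%. Bhlhe40 (179 and 164 CPM) was not called, and Heyl (83.5 and 57.5 CPM) and Hey1 (46.4 and 33.9 CPM) were higher in library 1.

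**Figure D4:**
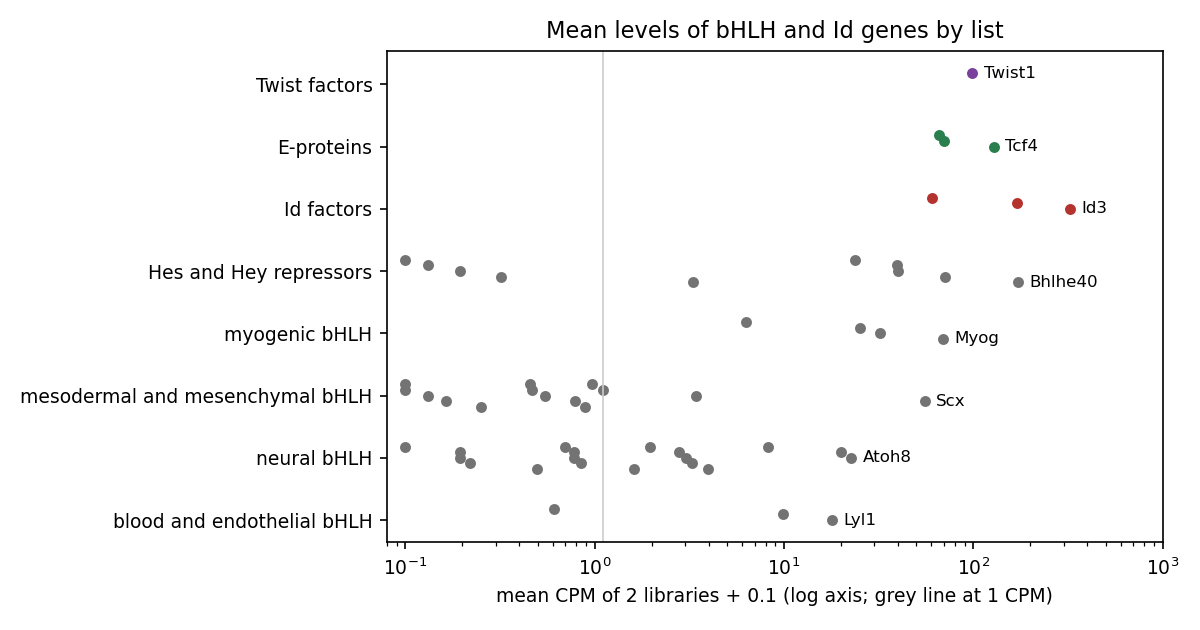
Mean CPM of the 2 libraries plus 0.1, on a log axis, for the 56 measured bHLH and Id genes of the chosen lists. The highest gene of each list is named. The Twist, E-protein and Id genes lie between 60.4 and 325 CPM, and most other bHLH genes of these lists lie below 10 CPM.

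The BMP pathway, which lies upstream of the Id genes, was present throughout, and its members were mostly higher in library 2. All 14 genes of the list (ligands, receptors and Smads) were detected at 1 CPM in each library, and their median was 37.7 CPM. The highest were the receptor Bmpr2 (144 and 145 CPM) and the BMP-activated transcription factors Smad5 (113 and 123 CPM) and Smad1 (91.3 and 80.3 CPM). Library 2 was the higher one for 9 of them in the exact binomial test, library 1 for Smad1, and 4 were not called. Of all targets with a mean of at least 1 CPM the test called 59.6%, split into 26.8% toward library 1 and 32.9% toward library 2. On the log2 scale the list had a median difference of -0.69. Among the 9 were the ligands Bmp2, Bmp4, Bmp6 and Bmp7 and the inhibitory Smad6 and Smad7, themselves BMP targets. Smad7 was read at 19.1 and 41.3 CPM and Smad6 at 18.2 and 30.1 CPM. These 4 ligands and 2 Smads were named after their values were seen. Beside them, Id1 and Id3 differed by 0.04 and -0.05, and Id2 by 0.43 toward library 1. Whether the Id genes differ from the list was not tested.

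A chosen list of genes linked with Twist1 and Tcf12 was also detected throughout. Its members are called coronal suture genes here, although the tissue held lambdoid and sagittal sutures too. All 17 reached 1 CPM in both libraries, and the test called 12 toward library 2, 1 toward library 1 and left 4 uncalled, beside the 32.9% and 26.8% of all targets with a mean of at least 1 CPM that it called in these directions. Their median difference was -0.32. Fgfr1, a growth factor receptor, was read at 382 and 605 CPM, Runx2, the master regulator of osteoblasts and whose activity Twist1 is known to restrain, at 123 and 256 CPM, and Fgfr2 at 180 and 196 CPM. The gene higher in library 1 was Zeb1, a repressor that drives mesenchymal character like Twist1, at 89.7 and 58.4 CPM, named after its values were seen. Twist1 and Runx2 thus differed in opposite directions, by 0.77 and -1.06 on the log2 scale. With 2 libraries no relation between them can be tested.

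**Figure D5:**
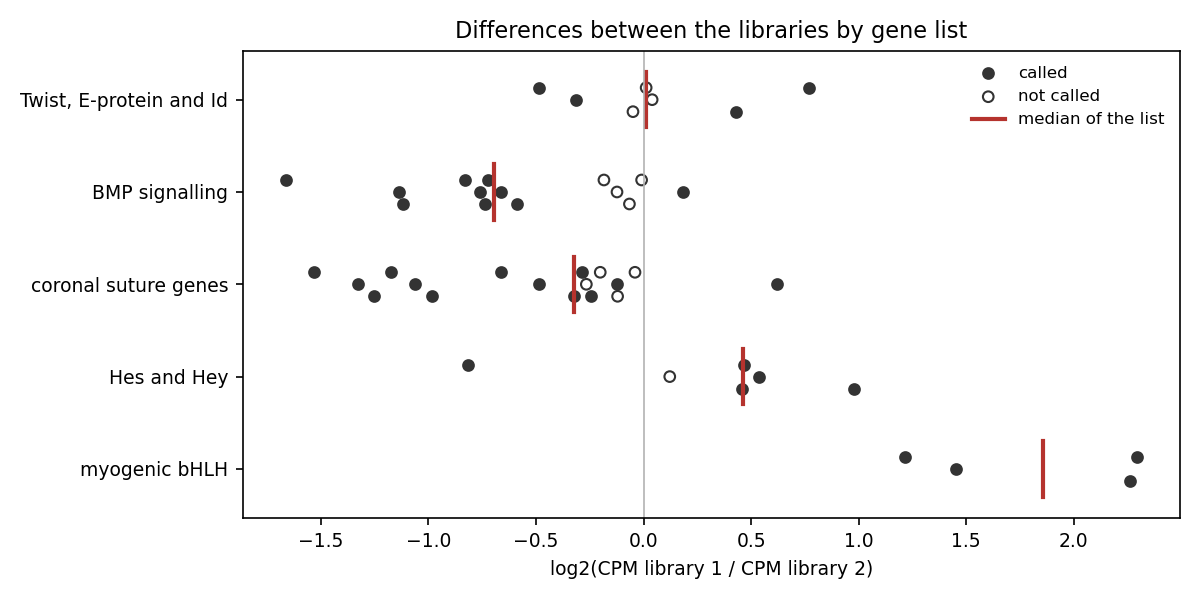
log2(CPM library 1 / CPM library 2) of single genes by list (genes with a mean of at least 1 CPM); filled points were called in the exact binomial test, open points were not, and red bars are list medians. The 7 genes scatter around 0 with a median of 0.01, while the BMP list lies at -0.69 and the coronal suture list at -0.32.

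Summed reads of cell type markers, in lists of up to 6 each, also differed between the libraries. The counts below stand beside 32.5% of well-measured targets called higher in library 1 and 37.0% called higher in library 2. All 6 skeletal muscle markers were higher in library 1, where they summed to 39216 CPM against 11878 CPM in library 2, and 5 of 6 endothelial markers were too (688 and 489 CPM), as were 5 of 6 erythroid markers (1490 and 1253 CPM). All 5 osteoblast markers measured (2558 and 5529 CPM), all 6 chondrocyte markers (1076 and 3580 CPM) and all 6 neuron markers (176 and 664 CPM) were higher in library 2. So were all 6 olfactory sensory neuron markers (96.6 and 527 CPM) and all 6 tooth germ markers (119 and 531 CPM). Of the tooth germ markers, Odam, named after its values were seen, had 0 reads in library 1. Of 6 keratinocyte markers (102 and 135 CPM), 4 were higher in library 2 and 1 in library 1. Suture mesenchyme markers were all detected, at 605 and 617 CPM in sum, with 1 higher in library 1 and 4 higher in library 2. Postn, the 1 toward library 1, made up most of this sum in both libraries, at 445 and 331 CPM. The near-level sum therefore does not describe the single markers, whose median on the log2 scale was -0.60, toward library 2. The 4 measured markers of the B lineage, cells in which Tcf3 acts, summed to 90.1 and 84.0 CPM, with 2 higher in library 1 and 1 in library 2. Most of that sum was Ebf1 (46.1 and 66.1 CPM), the 1 higher in library 2. Cd79b (27.7 and 10.2 CPM) was higher in library 1, and Pax5 (8.30 and 5.57 CPM) was not called. The median difference of these B lineage markers was 1.01 on the log2 scale, toward library 1. Of 6 macrophage markers (295 and 282 CPM), the test called 3 toward library 1, 1 toward library 2 and left 2 uncalled. An uncalled marker, C1qa, named after its values were seen, had 0 reads in library 1 and 3 in library 2. Their part in the differences of Twist1, Id2, Tcf3 and Tcf4 was not tested. In bulk tissue, fewer cells of a type and less RNA per cell cannot be told apart. Library 1 held 5663344 reads and library 2 15802610.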

How the data were processed

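RNA was profiled in 2 libraries of 1 group with the Ion AmpliSeq mouse transcriptome panel, per the labels' protocols. The authors deposited CPM values, 1 amplicon target per gene and 1 column per library. The submitters' processing notes name mm10; the sources used here give no aligner, counter or filter. Values came in steps of 0.177 CPM in library 1 and 0.0633 CPM in library 2, and 100% of those above 0 gave whole reads (tolerance 0.01 of a read), so reads were recovered. They sum to 5663344 and 15802610, without molecular identifiers, so intervals cover counting error only. In 27 rows a date stood in place of the symbol, restored from the target name.

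Libraries were compared with an exact two-sided binomial test (scipy 1.17.1) on recovered reads scaled to library totals, adjusted by Benjamini-Hochberg over all 23930 targets at 0.05. It was also run on simulated reads with counting error only, a setting that does not cover variation between samples. Ratios carry exact (Clopper-Pearson) 95% intervals. TMM factors and an exact test with a preset coefficient of variation of 0.2 came from edgeR 4.0.16, and size factors from DESeq2 1.42.0. The pseudocount, where used, was 1 CPM. Positions are from GENCODE on GRCm38, the build of mm10. The genes, lists and tests were chosen with earlier results of these data known. Named genes are all 7 measured genes and the 3 highest of each bHLH, BMP and coronal suture list. Marker lists are given mostly as counts and sums, with Postn and the 3 highest B lineage markers named. Others are marked as named after their values were seen. With 2 libraries no likeness of patterns could be measured.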

Additional observations from a re-analysis of the deposited data

How the results depend on the processing

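The number of the 7 genes called between the libraries stayed at 4 (2 in each direction) with TMM scaling, median-of-ratios scaling, a total without the 10 most abundant targets, and adjustment over targets with a mean of at least 1 CPM. The scalings moved the median of well-measured targets by at most 0.04 on the log2 scale. With edgeR's exact test at a preset coefficient of variation of 0.2, the number was 0, with 0 of the 7 at an unadjusted p under 0.05. Adjusted p was then 0.350 for Twist1, 0.711 for Tcf4, 0.779 for Id2 and 0.965 for Tcf3, and 8.06% of well-measured targets were called. At a threshold of 2-fold, 0 of the 7 genes passed (16.5% of those targets). The ratios were also taken without Id3 and Tcf4, the most abundant Id and E-protein genes, with Twist1 kept. The mean ratio of Id to E-protein reads was then 1.70, of Twist1 to E-protein reads 0.736 and of Id to Twist1 reads 2.47. Leaving out a library in turn gave 3 to 4 mesodermal and mesenchymal bHLH genes at 1 CPM, against 2 in both. No paired analysis was possible because the samples form 1 group.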
